A study of Mus musculus with 6 samples.

Results

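The genes described here make cholesterol, sense it and move it, together with the enzymes of fatty acid synthesis that share its control. They were listed by name as genes of the pathway, with earlier results of these data known. Measured values enter the rule only in the choice of a gene's probe set, the one of highest mean over the 6 arrays. Of the 37 genes listed, 34 had a probe set of their own, among 19938 genes tested. Acat2, Nr1h2 and Soat1 were not analysed here. Expression was measured on Affymetrix arrays in group 3 innate lymphoid cells (ILC3s) that carry the chemokine receptor CCR6, sorted from the small intestinal lamina propria of adult C57BL/6 mice. Tnfsf11 encodes the cytokine RANKL. The 3 control samples came from Tnfsf11fl/fl mice, and the 3 RANKL-deficient samples from Tnfsf11fl/fl mice with a Cre transgene, so that all 6 carried the floxed alleles. The control label names no Cre, so an effect of the transgene cannot be told apart from that of the deletion. The labels do not say whether a sample is 1 mouse or a pool.

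Cells build cholesterol from acetyl-CoA through mevalonate, isoprenoids and squalene, in a chain of enzymes of the cytosol and the endoplasmic reticulum. When sterols run low, SCAP escorts the SREBP transcription factors out of the endoplasmic reticulum and the genes of these enzymes are switched on together, whereas INSIG proteins hold the complex back when sterols are plentiful. Oxysterols, made when cholesterol is abundant, activate the LXR receptors, which switch on export pumps. Oxysterols also guide lymphoid cells, ILC3s among them, that carry the receptor GPR183.

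The promoters of 4 synthesis enzymes are shown because NF-Y, which binds the CCAAT box, is a known partner of SREBP at such genes, and because these enzymes stand for the different behaviours described below. Hmgcs1 makes the precursor of mevalonate and had nearly equal group means, Nsdhl and Ebp were the synthesis genes with the lowest p, and Hsd17b7 works beside Nsdhl but had lower values. Each line gives the 250 bases before the start site, 5′ to 3′, from RefSeq on GRCm38.p6. Capitals mark CCAAT on either strand (ATTGG on the strand shown), the sterol response core TCACNCCAC and the E-box CACGTG, and the marked stretches do not overlap. The windows are chr13:119690101-119690350 on the plus strand for Hmgcs1, chrX:72918271-72918520 on the plus strand for Nsdhl, chr1:169969206-169969455 on the minus strand for Hsd17b7 and chrX:8193513-8193762 on the minus strand for Ebp.
Hmgcs1: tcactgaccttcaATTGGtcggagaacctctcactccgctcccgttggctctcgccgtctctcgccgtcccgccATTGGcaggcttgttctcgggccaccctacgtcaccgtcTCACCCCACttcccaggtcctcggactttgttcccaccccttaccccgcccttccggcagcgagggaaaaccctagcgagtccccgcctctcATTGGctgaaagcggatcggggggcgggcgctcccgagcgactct
Nsdhl: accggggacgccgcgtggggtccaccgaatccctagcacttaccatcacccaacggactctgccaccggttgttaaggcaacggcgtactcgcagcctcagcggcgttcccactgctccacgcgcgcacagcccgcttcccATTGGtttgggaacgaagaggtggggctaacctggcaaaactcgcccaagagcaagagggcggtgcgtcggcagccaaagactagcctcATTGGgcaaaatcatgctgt
Hsd17b7: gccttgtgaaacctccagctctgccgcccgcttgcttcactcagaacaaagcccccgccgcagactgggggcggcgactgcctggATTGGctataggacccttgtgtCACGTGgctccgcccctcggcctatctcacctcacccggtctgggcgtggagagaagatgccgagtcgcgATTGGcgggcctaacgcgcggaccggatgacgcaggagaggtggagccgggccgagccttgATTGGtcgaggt
Ebp: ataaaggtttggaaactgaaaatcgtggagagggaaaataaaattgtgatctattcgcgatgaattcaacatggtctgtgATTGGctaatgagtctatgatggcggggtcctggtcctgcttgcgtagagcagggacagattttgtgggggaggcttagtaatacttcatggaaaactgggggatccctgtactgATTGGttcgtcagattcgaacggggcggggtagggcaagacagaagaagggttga

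The Hmgcs1 stretch holds 3 CCAAT boxes and the sterol response core, which begins 137 bases before the start site and reads TCACCCCAC. The Nsdhl and Ebp stretches hold 2 CCAAT boxes each. The Hsd17b7 stretch holds 3, and an E-box that begins 143 bases before the start. In the full windows of 300 bases, which run on for 50 bases past the start, a CCAAT box was found for all 14 synthesis enzymes with a window. The same letters were found for 41.7% of the 15614 tested genes with a window, and for 7 of the 12 other sterol genes. The sterol response core was found for 1 of the 26 sterol genes with a window, Hmgcs1, against 1.4% of tested genes, and the E-box for 6 of 26 against 9.50%. A match describes letters only. The 21 genes with a CCAAT box had a median difference of 0.12 log2 units (RANKL-deficient minus control) and the 5 without one had 0.10.

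All values are log2 expression values as deposited, and each difference is the mean of the RANKL-deficient arrays minus the mean of the control arrays. Tnfsf11 measured 8.76, 8.41 and 8.25 on control arrays 1 to 3 and 8.36, 8.65 and 8.52 on RANKL-deficient arrays 1 to 3. The groups overlapped. Where this probe set lies with respect to the floxed exons is not stated, so its values do not check the labels. Array medians ran from 5.07 to 5.15. Control array 1 stood apart, with 247 genes that lay over 1.5 log2 units under the other arrays' median, and control array 2 had 75, against 11 to 28 on the rest. Results that rest on these arrays are therefore given without them too. Without both, control array 3 is the only control left, so such a value has no control replicate. The defining ILC3 genes Il7r (12.23 to 12.32 over the 6 arrays), Kit (10.75 to 10.93) and Il23r (10.40 to 10.89) were high on every array.

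No sterol gene passed the test for a change. Of the 34 genes, 0 passed the adjusted threshold of 0.05 (limma, Benjamini-Hochberg over all genes, adjusted p from 0.513 to 0.999), where 0.00502% of all genes passed. At an unadjusted p under 0.05 there were 3 of 34 genes (8.82%), against 8.15% of all genes. All 3 had higher values in RANKL-deficient cells, where 4.25% of all genes were higher and 3.90% lower at that p. The direction rested on single arrays: it was 1 higher and 2 lower without RANKL-deficient array 2, 1 higher and 1 lower without RANKL-deficient array 1, and 2 higher and 1 lower without control array 1. The 3 genes were the synthesis enzymes Ebp and Nsdhl and the exporter Abcg1. All RANKL-deficient arrays were above all control arrays for 2 genes (5.88%, against 5.28% of all genes) and below them for 1 gene (2.94%, against 9.08%). The shares at an unadjusted p under 0.05 and of genes with higher arrays lie near the background. After quantile normalization the genes at an unadjusted p under 0.05 were 3 higher and 1 lower, and after cyclic loess 3 higher and 2 lower. The median difference was 0.052 log2 units over the sterol genes and −0.054 over all genes. Among genes above the median level it was 0.12 over 29 sterol genes and 0.033 over all such genes. The sign of the background thus depended on expression level. Values were higher for 19 and lower for 15 of the 34 genes. Without control arrays 1 and 2 the median was −0.068, and 13 genes had higher and 21 lower values. That fit keeps only control array 3, which had the highest median over the sterol genes of the 6 arrays (6.56). The 95% confidence interval of the difference lay within 1 log2 unit either way for 26 of the 34 genes, so larger changes of those genes fall outside their intervals, while for the other 8 the arrays do not set that limit.

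**Figure D1:**
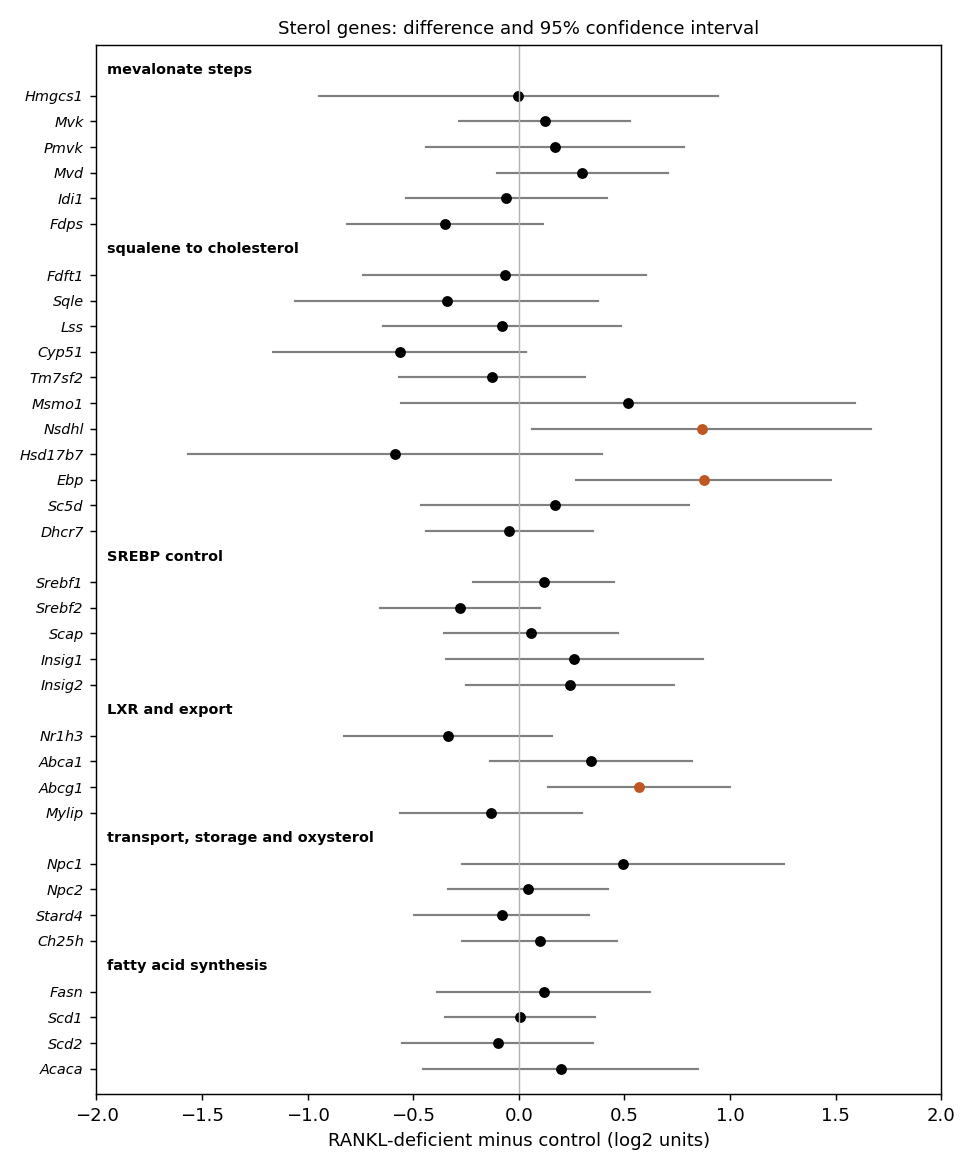
Difference between RANKL-deficient and control arrays (log2 units, points) with its 95% confidence interval from limma (lines) for the 34 measured sterol genes, ordered by role and pathway step. The 3 orange points (Nsdhl, Ebp, Abcg1) are those at an unadjusted p under 0.05, and 0 of the 34 passed the adjusted threshold.

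The mevalonate steps, which turn acetyl-CoA units into isoprenoids, showed no common direction. Of the 6 measured, 3 had higher and 3 lower values, with a median of 0.061, and 0 reached an unadjusted p under 0.05. Hmgcs1, the synthase that opens the pathway, measured 5.10, 6.31 and 6.60 on control arrays 1 to 3 and 5.66, 6.43 and 5.92 on RANKL-deficient arrays 1 to 3. The lowest value was that of control array 1, and the group means were 6.00 ± 0.80 and 6.00 ± 0.39 (SD, n = 3), a difference of −0.0015 (95% confidence interval −0.95 to 0.94). That near equality rested on control array 1, without which the difference was −0.45. Fdps, which makes farnesyl diphosphate, measured 6.86, 6.18 and 6.28 on the control arrays and 6.12, 6.16 and 5.99 on the RANKL-deficient arrays. Its groups did not overlap, by a margin set by control array 2, and the difference of −0.35 (SE 0.20, adjusted p = 0.680) was −0.14 without control array 1. The kinases Mvk and Pmvk, which phosphorylate mevalonate and its product, had differences of 0.12 and 0.17. Mvd, the decarboxylase that follows them, had 0.30. Idi1, the isomerase of the isoprenoid unit, had −0.060, and its other probe set gave −0.12.

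The steps from squalene to cholesterol held both the highest and the lowest difference among the sterol genes. Of 11 enzymes, 4 had higher values (36.4%, against 39.5% of all genes) and 7 lower, with a median of −0.068. At an unadjusted p under 0.05 there were 2 (18.2%, against 8.15% of all genes), in a list too short to read that share. Ebp, the sterol isomerase, measured 4.84, 4.87 and 5.21 on control arrays 1 to 3 and 5.58, 6.42 and 5.55 on RANKL-deficient arrays 1 to 3. All RANKL-deficient arrays lay above all control arrays, and array 2 of that group was far above the others. The means were 4.97 ± 0.21 and 5.85 ± 0.49 (SD, n = 3), a difference of 0.88 (1.84-fold, SE 0.26, limma adjusted p = 0.513). Without RANKL-deficient array 2 the difference was 0.59, and without control arrays 1 and 2 it was 0.64. The control mean of Ebp was thus under the level of the median gene (5.12), although control array 3 was above it. The arrays gave no background level, and a control level at background would make this fold a minimum.

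Nsdhl, the dehydrogenase of sterol demethylation, measured 6.20, 6.13 and 6.86 on the control arrays and 7.80, 7.41 and 6.58 on the RANKL-deficient arrays. The groups overlapped, because RANKL-deficient array 3 lay below control array 3. The means were 6.40 ± 0.41 and 7.27 ± 0.62, a difference of 0.87 (1.82-fold, SE 0.34, limma adjusted p = 0.603). Without control arrays 1 and 2 it was 0.40, which moves the value by more than 1.5 times. Both Nsdhl and Ebp lie on chromosome X.

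Other enzymes that act in removing the methyl groups had values in both directions. Msmo1, the oxidase, measured 5.42, 6.33 and 7.18 on the control arrays and 7.29, 6.91 and 6.28 on the RANKL-deficient arrays, an overlap with a difference of 0.52 (SE 0.46). Without control arrays 1 and 2 its sign turned, to −0.35. Hsd17b7, the reductase, measured 6.11, 7.26 and 6.75 on the control arrays and 5.94, 6.92 and 5.50 on the RANKL-deficient arrays, a difference of −0.59 (SE 0.42) that ran from −0.99 without RANKL-deficient array 2 to −0.28 without RANKL-deficient array 3, and was −0.89 without control array 1 and −0.31 without control array 2. Cyp51, the demethylase that acts on lanosterol before them, measured 6.69, 7.64 and 7.08 on the control arrays and 6.46, 6.84 and 6.43 on the RANKL-deficient arrays. Only RANKL-deficient array 2 reached into the control range, and the difference was −0.56 (SE 0.25, limma adjusted p = 0.618), or −0.31 without control array 2.

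Among the entry enzymes of the sterol branch, Sqle, the squalene epoxidase, had a difference of −0.34, with its lowest value on RANKL-deficient array 3 (4.93). It was −0.010 without that array and −0.62 without RANKL-deficient array 2. Fdft1, the squalene synthase, had −0.068, and its other probe set gave 0.22. Lss, which closes the ring to lanosterol, had −0.079. Of the late reductases and desaturases, Tm7sf2 had −0.13, Sc5d 0.17 and Dhcr7 −0.045. The 95% confidence intervals of these 6 genes all include 0.

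The synthesis enzymes had a wide spread between arrays of the same group, as did some but not all other lists of the pathway. The SD within groups had a median of 0.38 log2 units over the 15 synthesis enzymes above the median level of all genes, against 0.27 over the 9969 tested genes above that level. Over all measured genes of a list, it was 0.38 for the 17 synthesis enzymes, 0.59 for the 6 further genes of SREBP processing, 0.37 for the 7 of the isoprenoid branch and 0.37 for the 4 kinases, against 0.21 over all genes. It was 0.29 for the 17 further genes of sterol transport, storage and uptake and 0.28 for the 4 of fatty acid synthesis. The 4 genes of LXR and export and the 12 of acetyl-CoA, NADPH and fatty acid supply had 0.26 each, and Gpr183 alone had 0.32. Further lists lay near or below the value of all genes. The median was 0.22 for the 5 genes of SREBP control and 0.21 for the 4 of transport, storage and oxysterol. The 6 LXR partners and targets had 0.19, and the 5 sterol enzymes outside the named set 0.15. Among the named sterol genes the SD was highest for Msmo1 (0.72), Hsd17b7 (0.65) and Hmgcs1 (0.63). Over all 17 enzymes, the mean log2 value ran from 5.94 on control array 1 to 6.36 on control array 3, and from 6.03 on RANKL-deficient array 3 to 6.36 on RANKL-deficient array 2. The 2 ranges nearly coincide. Control array 1 had the lowest of the 6 values for 7 of 17 enzymes and RANKL-deficient array 3 for 6, against 17.9% and 15.8% of all genes. RANKL-deficient array 3 also had the highest value for 4 of 17 enzymes (23.5%, against 11.9% of all genes), so it was not low throughout. The part that the quality of control array 1 has in its low values was not tested.

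**Figure D2:**
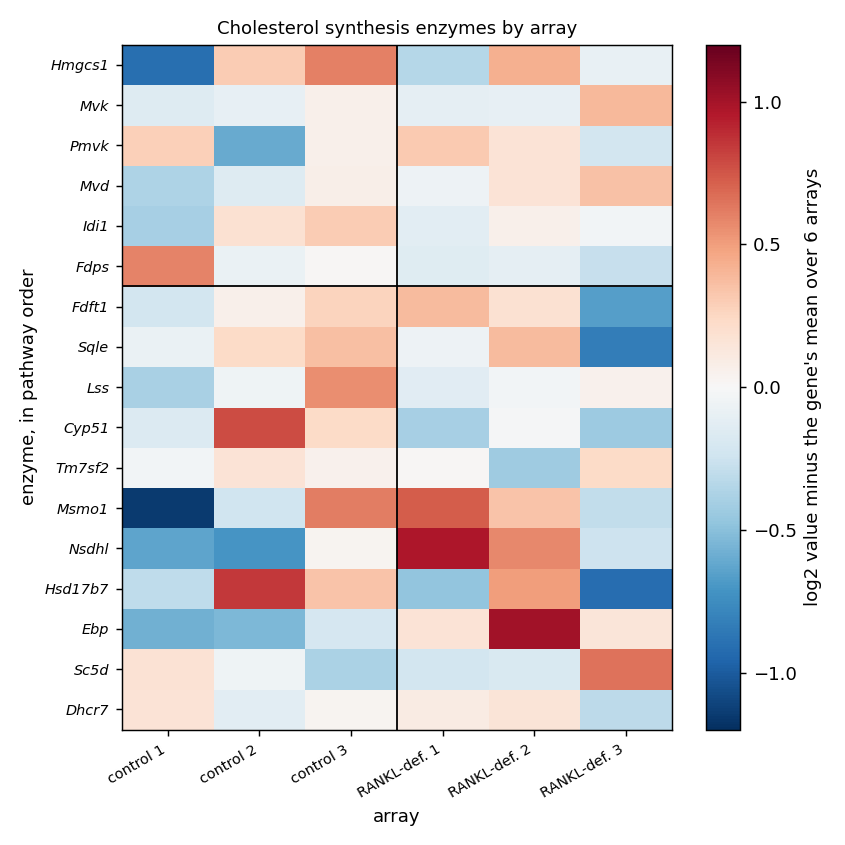
Log2 value of each of the 17 measured synthesis enzymes (rows, in pathway order, mevalonate steps above the line) on each array (columns, control left of the line), after subtracting the gene's mean over the 6 arrays. Low values (blue) gather on control array 1 (mean over enzymes 5.94) and RANKL-deficient array 3 (6.03), 1 array of each group. RANKL-deficient array 3 also has the highest value for 4 of the 17.

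**Figure D3:**
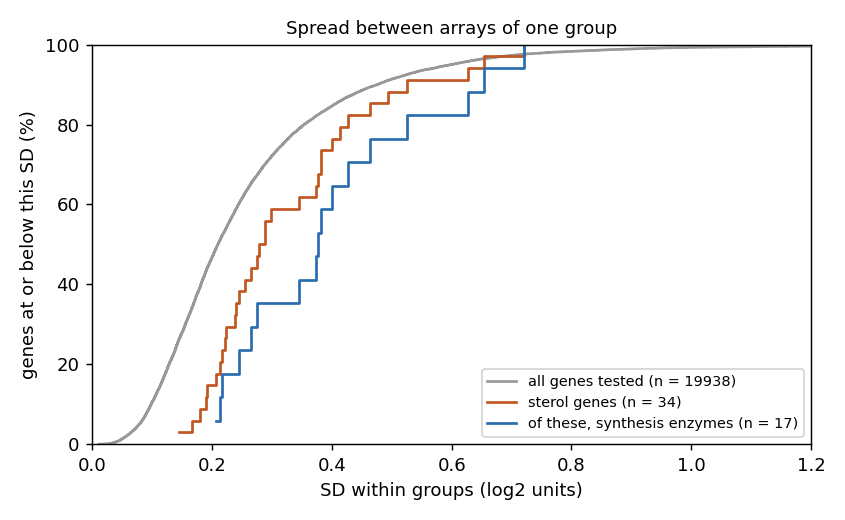
Cumulative share of genes (percent, vertical axis) by SD within groups (log2 units, horizontal axis) for all 19938 genes tested, the 34 sterol genes and the 17 synthesis enzymes among them. Of the synthesis enzymes, 16 of 17 had an SD above the median of all genes (0.21), and of the sterol genes 28 of 34.

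The genes that control SREBP had small differences in both directions. Srebf2, the main activator of cholesterol synthesis, measured 8.79, 8.68 and 8.94 on control arrays 1 to 3 and 8.79, 8.43 and 8.35 on RANKL-deficient arrays 1 to 3. The groups overlapped, and the difference was −0.28 (SE 0.16, 95% confidence interval −0.66 to 0.099). Srebf1, which leans to fatty acid genes, measured 6.87, 7.10 and 6.74 on the control arrays and 6.92, 7.12 and 7.02 on the RANKL-deficient arrays, a difference of 0.12 (SE 0.14). Its array values interleave, and it had the lowest SD within groups of the sterol genes (0.14). The escort Scap had a difference of 0.059, with a negative sign after quantile normalization (−0.011) and cyclic loess (−0.0077). The retention factors Insig1, itself a target of SREBP, and Insig2 had 0.26 and 0.24. Of these 5 genes, 0 reached an unadjusted p under 0.05.

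Among the LXR receptor and its targets, the exporter Abcg1 had the lowest p. ABCG1 is a pump that loads cholesterol onto lipoproteins. Its gene measured 6.76, 7.04 and 7.12 on control arrays 1 to 3 and 7.78, 7.61 and 7.23 on RANKL-deficient arrays 1 to 3. All RANKL-deficient arrays lay above all control arrays, by a narrow margin between array 3 of both groups. The means were 6.97 ± 0.19 and 7.54 ± 0.28 (SD, n = 3), a difference of 0.57 (1.48-fold, SE 0.18, limma adjusted p = 0.546). It ran from 0.45 to 0.72 when 1 array was left out, and was 0.43 without control arrays 1 and 2.

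The partner pump Abca1, which starts the loading, measured 5.55, 5.60 and 5.71 on the control arrays and 5.81, 6.39 and 5.67 on the RANKL-deficient arrays. The groups overlapped only through RANKL-deficient array 3, and the difference was 0.34 (SE 0.20, limma adjusted p = 0.687), or 0.12 without RANKL-deficient array 2. Nr1h3, the LXRα receptor, measured 4.58, 4.18 and 3.91 on the control arrays and 3.64, 3.93 and 4.09 on the RANKL-deficient arrays, a difference of −0.33 (SE 0.21). Both of its group means lay below the median of all genes. Mylip, an LXR target that marks lipoprotein receptors for degradation, had −0.13. Receptor, pumps and Mylip thus had values in both directions. ABCG1, ABCA1 and LXRα are abundant in macrophages, so the markers of that type were read as well. The 10 macrophage and monocyte markers other than Ccr2 had mean log2 values of 5.27 to 5.34 on the control arrays and 4.74 to 5.41 on the RANKL-deficient arrays. Over all 11 markers, 6, Ccr2 among them, had higher and 5 lower values in RANKL-deficient cells. At an unadjusted p under 0.05 there were 2 (18.2%, against 8.15% of all genes), Ccr2 higher and Adgre1 lower. Among the 11 markers C1qa had a difference of 0.29 and Cd68 0.18, while Adgre1 had −0.54 and Cd14 −0.64. Their part in the values of Abcg1 was not tested. Ccr2 measured 4.89 to 5.15 on the control arrays and 7.44 to 7.98 on the RANKL-deficient arrays and was the 1 gene of the whole table past the adjusted threshold.

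**Figure D4:**
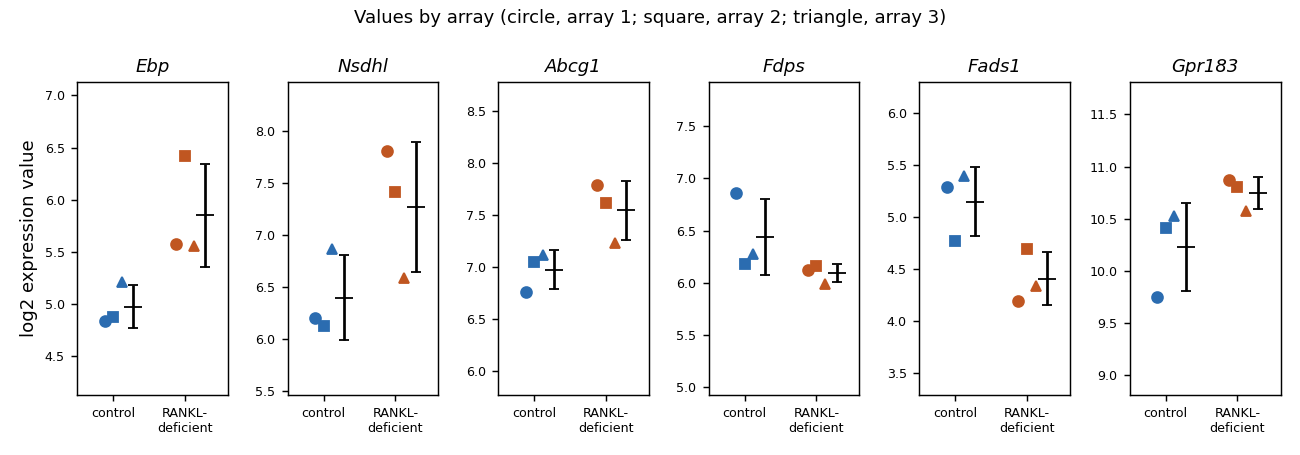
Log2 expression values on each array (points; blue, control; orange, RANKL-deficient) with the mean and SD of each group (black bars, n = 3) for Ebp, Nsdhl, Abcg1, Fdps, Fads1 and Gpr183. Each panel spans the same number of log2 units, and groups overlap for Nsdhl but not for the others.

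Genes of sterol transport and of oxysterol synthesis other than Npc1 had small differences. Npc1, the lysosomal membrane protein that releases cholesterol, had 0.49 (SE 0.32, 95% confidence interval −0.27 to 1.25), which turned to −0.080 without control arrays 1 and 2. Its soluble partner Npc2 had 0.045, and the carrier Stard4 had −0.081. Ch25h, whose enzyme makes an oxysterol from cholesterol, measured 3.60, 3.19 and 3.46 on the control arrays and 3.36, 3.55 and 3.64 on the RANKL-deficient arrays. These values interleave and lie far below the median of all genes (difference 0.10, 95% confidence interval −0.27 to 0.47).

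The enzymes of fatty acid synthesis had differences close to 0. Acaca, which commits acetyl-CoA to fatty acids, had 0.20, and 0.31 on its other probe set. Fasn, the synthase itself, had 0.12. The desaturases Scd1 and Scd2 had 0.0049 and −0.10. Scd1 measured 3.24 to 3.46 on the control arrays and 3.12 to 3.53 on the RANKL-deficient arrays, all below the median of all genes. The 4 genes had a median of 0.061, and 0 of 4 reached an unadjusted p under 0.05.

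A wider list of 65 pathway genes outside the named set was read the same way, and 58 were measured. None passed the test, with 0 past the adjusted threshold (limma, adjusted p from 0.496 to 0.998). At an unadjusted p under 0.05 there were 4 (6.90%, against 8.15% of all genes), 1 higher and 3 lower (3 higher and 1 lower with median centring, 5 and 4 with array weights), and the median difference was 0.0054. That count rested on single arrays: it was 12 without control array 3, where the share of all genes was 14.1%, and 1 without RANKL-deficient array 2. It was 2 without control array 2 or without RANKL-deficient array 3.

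Fads1, a desaturase of polyunsaturated fatty acids driven by SREBP, measured 5.28, 4.77 and 5.39 on the control arrays and 4.19, 4.69 and 4.34 on the RANKL-deficient arrays. Its groups did not overlap, and the difference was −0.74 (SE 0.21, limma adjusted p = 0.496). Its neighbour in the pathway Fads2 had −0.16. Hsd3b7, an enzyme of bile acid and oxysterol metabolism, measured 4.70, 4.74 and 4.65 on the control arrays and 4.39, 4.39 and 4.43 on the RANKL-deficient arrays. These groups lay apart with little spread, at a difference of −0.29 (SE 0.11, limma adjusted p = 0.593), with all values below the median of all genes. Nceh1, which frees cholesterol from its stored esters, measured 6.47, 5.83 and 7.68 on the control arrays and 7.33, 7.71 and 8.70 on the RANKL-deficient arrays. The groups overlapped through control array 3, and the difference of 1.26 (SE 0.52, limma adjusted p = 0.607) was 0.24 without control arrays 1 and 2.

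Tmem97, a sterol-responsive membrane protein that binds NPC1, measured 7.27, 7.0 and 5.31 on the control arrays and 5.47, 5.43 and 5.22 on the RANKL-deficient arrays. Control arrays 1 and 2 alone were high, and the difference of −1.15 (SE 0.48, limma adjusted p = 0.607) turned to 0.063 without them. The other probe set of Tmem97 gave 0.054.

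Gpr183, the oxysterol receptor that positions ILC3s in lymphoid tissue, measured 9.75, 10.41 and 10.53 on control arrays 1 to 3 and 10.87, 10.80 and 10.57 on RANKL-deficient arrays 1 to 3. All RANKL-deficient arrays lay above all control arrays, although the nearest values, on array 3 of both groups, were almost equal. The difference was 0.52 (1.44-fold, SE 0.22, 95% confidence interval −0.0059 to 1.05, limma adjusted p = 0.611), and it was 0.28 without control array 1 and 0.22 without control arrays 1 and 2. Cyp7b1, whose enzyme acts with that of Ch25h on the ligand of GPR183, had −0.32. Its groups overlapped, and both means (3.49 control, 3.17 RANKL-deficient) lay far below the median of all genes.

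By role, the wider list was mixed as well. The genes of SREBP processing had 4 of 6 higher values (median 0.14), and the isoprenoid branch 4 of 7 (median 0.11). Among the suppliers of acetyl-CoA and fatty acids, 5 of 12 were higher (median −0.12). LXR partners and targets had 1 of 6 higher (median −0.16), and sterol enzymes outside the named set 2 of 5 (median −0.22). Transport and storage genes had 11 of 17 higher (median 0.051), and the kinases 2 of 4. Over all genes tested 39.5% had higher values. Markers of T cells, which the gate could hold, differed in both directions beside these values. Cd3g had means of 6.69 ± 0.78 (control) and 4.78 ± 0.54 (RANKL-deficient; limma adjusted p = 0.408). Cd4, which lymphoid tissue inducer cells can express too, had 8.63 ± 0.39 and 9.32 ± 0.16 (limma adjusted p = 0.523). The mean of the 7 T cell markers was 5.46 to 5.85 on the control arrays and 5.31 to 5.60 on the RANKL-deficient arrays. The mean of the 11 epithelial markers was 5.37 to 5.74 and 5.09 to 5.58. Means of 2 further marker lists were lower on all RANKL-deficient arrays. These were 6 B and plasma cell markers (5.53 to 5.61 and 5.38 to 5.50) and 7 stromal and endothelial markers (5.84 to 5.95 and 5.59 to 5.81). Means of the 4 mast cell markers (3.22 to 3.45 and 3.12 to 3.24) and 6 dendritic cell markers (4.31 to 4.46 and 4.295 to 4.34) overlapped. Their part in the values of the sterol genes was not tested, and in sorted bulk samples fewer cells of a type and less RNA per cell cannot be told apart. Control array 1 had the highest of the 6 values for 33.4% of all genes, and its part in the marker means was not tested.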

How the data were processed

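Each of 6 samples was run on an Affymetrix mouse gene array, 3 control and 3 RANKL-deficient, after amplification from 2 ng of total RNA, per the labels' protocols. Groups and array numbers come from the sample titles. The authors deposited log2 expression values of 35556 probe sets, and the submitters' processing notes name RMA and Affymetrix Expression Console. Tool versions and the build were not given in the sources used here. RMA gives arrays nearly equal distributions, so a shift of all genes would not show. The number of arrays limits the precision.

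Probe sets with 1 symbol in the platform annotation (21789) were kept, symbols were updated by identifier (RefSeq table of GRCm38.p6), and each gene was represented by its probe set of highest mean. All 19938 genes were fitted in R 4.3.3 with limma 3.58.1 (functions lmFit and eBayes, two-sided, Benjamini-Hochberg over all genes), with no filter on low values. Unadjusted p-values are given as descriptions. Nothing says that samples came from separate mice, so the p-values reflect spread that could be technical. All sterol genes are reported, with values on every array for those at an unadjusted p under 0.05, those whose groups did not overlap, and the genes Srebf1, Srebf2, Nr1h3, Abca1, Abcg1 and Ch25h. Of the wider list, those at an unadjusted p under 0.05 and Gpr183 are named. Fads2 and Cyp7b1, and the few other genes with array values, were chosen after their values were seen. Members and lists were chosen with earlier results of these data known. The procedure was tested on simulated data. RefSeq promoter windows were matched by symbol, for 26 of the 34 genes.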

Additional observations from a re-analysis of the deposited data

How the results depend on the processing

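The count of sterol genes past the adjusted threshold was 0 under all 16 alternatives, with the lowest adjusted p between 0.273 and 0.825. The count at an unadjusted p under 0.05 was 3, and 5 after cyclic loess and 2 to 4 without 1 array. The median difference of the sterol genes, 0.052, ran from 0.0050 after quantile normalization to 0.12 among genes above the median level. All genes above that level had 0.033. For the sterol genes it was −0.068 without control arrays 1 and 2, and 0.013 to 0.074 without 1 array. The 4 genes of the wider list were 2 after cyclic loess, 2 among genes above the median level and 2 with all probe sets tested. They were 9 with array weights and 1 to 12 without 1 array. 

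No pairing by array number was visible, with deviations of same-numbered arrays correlated at −0.023, 0.050 and 0.027. Arrays of different numbers were not compared in this way, so these values cannot exclude a pairing. With the replicate block, 0 sterol genes passed the adjusted threshold, 3 reached an unadjusted p under 0.05 (2 higher and 1 lower, so not the same 3 genes), and the wider list had 4.

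No sterol gene was past the threshold, so a sign that turns marks a value near 0 or one carried by single arrays. Without control arrays 1 and 2, the difference turned to −0.0038 for Mvk, −0.35 for Msmo1, −0.16 for Insig1, −0.080 for Npc1, −0.17 for Npc2, −0.12 for Scd1, 0.19 for Scd2, −0.28 for Acaca and 0.063 for Tmem97. With median centring it turned to 0.049 for Hmgcs1 and 0.0057 for Dhcr7, and with array weights to 0.019 for Dhcr7 and −0.027 for Fasn. With quantile normalization it was −0.011 for Scap and −0.014 for Npc2, and after cyclic loess −0.0077 for Scap, −0.052 for Npc2 and 0.0098 for Lss. With the mean of all probe sets Fdft1 had 0.077. Apart from the removal of arrays, the cause was not tested.

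Without 1 array, ranges that crossed 0 were −0.45 to 0.30 for Hmgcs1, −0.041 to 0.21 for Mvk, −0.090 to 0.36 for Pmvk, −0.28 to 0.079 for Idi1, −0.27 to 0.25 for Fdft1, −0.29 to 0.18 for Lss, −0.27 to 0.055 for Tm7sf2, −0.11 to 0.32 for Sc5d, −0.13 to 0.10 for Dhcr7, −0.083 to 0.14 for Scap, −0.26 to 0.038 for Mylip, −0.086 to 0.15 for Npc2, −0.20 to 0.046 for Stard4, −0.016 to 0.19 for Ch25h, −0.094 to 0.11 for Scd1, −0.25 to 0.035 for Scd2 and −0.0027 to 0.44 for Acaca. Ebp (0.59 to 1.02), Nsdhl (0.60 to 1.21), Abcg1 (0.45 to 0.72) and Fdps (−0.48 to −0.14) kept their sign in these fits. The arrays gave no background level, so how far Ch25h and Scd1 lie above it is unknown.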
